A study of Mus musculus with 19 samples.

Results

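The hotspots described here are 1549 one-sided hotspots of the humanized PRDM9 allele in the STUS/Hum hybrid male, that is, hotspots whose meiotic breaks were mapped by DMC1 single-stranded DNA sequencing (SSDS) mainly to 1 of the homologs. They were chosen by the B6 fraction of that library, the part of a hotspot's DMC1 reads that carried B6 alleles at SNPs, as autosomal hotspots assigned to the humanized allele with under 25% or over 75% of reads from B6. Of 10031 autosomal hotspots in the library, 4729 were assigned to the humanized allele and 4263 of those had a B6 fraction, so the one-sided hotspots made up 36.3% of the humanized hotspots that could be placed. A hotspot is called B6-cut here when B6 gave over 75% of its reads, STUS-cut when under 25% did, and matched between these limits, ends included. Since the B6 fraction of STUS/Hum selected the hotspots, its counts and signals are a description and carry no test.

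DMC1 SSDS covered 5 hybrid genotypes by a single library each, and H3K4me3 was profiled in 3 of them. STUS/Hum is a cross of STUS/Jpia (a wild-derived Mus musculus musculus strain) and C57BL/6J (B6) that is heterozygous at Prdm9, with the STUS allele on one homolog and, on the B6 homolog, a B6 gene whose zinc finger array was replaced by the human one. Hum/SPRT carries the same humanized allele on the B6 homolog and the Mus spretus (SPRET/EiJ, SPRT) allele on the other. It has 3 H3K4me3 and 3 input samples beside its DMC1 library. In each set a replicate number recurs in the labels with an added letter, so not all samples need be separate replicates. STUS/B6, B6/SPRT and CAST/SPRT carry the B6 allele or an allele with a Mus musculus castaneus array in its place. All samples were whole adult testis. No DMC1 library had a replicate, so no 95% interval below covers the spread between mice. Intervals of shares cover counting error only, and intervals of medians reflect the spread between hotspots.

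PRDM9 is the zinc finger protein that binds sequence motifs in early meiosis, places H3K4me3 on the nucleosomes beside them and so directs where double-strand breaks form. DMC1 coats the single-stranded DNA at the resected break, and its signal rises both with the number of breaks and with the time they take to be repaired. Where a motif differs between homologs, PRDM9 can bind and cut one of them preferentially, and over generations the preferred motif tends to be lost from the population, which is called erosion. The human array has no such history in either parent of these hybrids.

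Sequence around the hotspots could be shown only where a RefSeq promoter window of assembly GRCm38.p6 lay beside a center. Such a window, 300 bases long, lay within 200 bp of the center at 4 of 923 B6-cut hotspots (0.433%, 95% Wilson interval 0.169 to 1.11%), 2 of 626 STUS-cut hotspots (0.319%, interval 0.0877 to 1.16%) and 18 of 2714 matched humanized hotspots (0.663%, interval 0.42 to 1.05%). The nearest window in each direction is printed 5′ to 3′ on the plus strand, a choice made after the data were seen, to show B6 reference sequence beside a hotspot of each kind. Capitals mark a match to the human PRDM9 13-mer, CCNCCNTNNCCNC, searched on both strands.
Gm33934: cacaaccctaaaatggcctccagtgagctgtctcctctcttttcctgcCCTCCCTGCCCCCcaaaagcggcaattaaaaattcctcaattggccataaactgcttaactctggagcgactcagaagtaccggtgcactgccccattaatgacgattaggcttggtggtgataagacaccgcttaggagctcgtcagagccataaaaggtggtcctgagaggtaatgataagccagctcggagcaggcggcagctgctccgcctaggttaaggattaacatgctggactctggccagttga
Gm13748: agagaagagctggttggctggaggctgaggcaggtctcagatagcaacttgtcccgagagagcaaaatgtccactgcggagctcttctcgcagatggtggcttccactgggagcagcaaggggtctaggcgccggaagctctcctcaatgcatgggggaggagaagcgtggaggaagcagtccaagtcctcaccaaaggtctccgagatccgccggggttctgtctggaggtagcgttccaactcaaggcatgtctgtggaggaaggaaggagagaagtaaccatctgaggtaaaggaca
The first window, chr6:101271686-101271985, is the promoter of Gm33934 and holds the center of a B6-cut hotspot at position 101271870. The 13-mer matched once, from position 101271734 to 101271746, with its nearer end 124 bp from the center. Among 31396 autosomal promoter windows, 1993 (6.35%) held an exact match, so a match by itself is common. The DMC1 signal at this hotspot was 15.9, with 83.3% of reads from B6, and in Hum/SPRT 87.5% of its DMC1 reads and 94.5% of 380 SNP-carrying H3K4me3 reads came from B6. The second window, chr1:64079081-64079380, is the promoter of Gm13748, begins 92 bp from a STUS-cut hotspot at position 64078989 and held no exact match in the printed letters. That hotspot had a signal of 19.5 with 12.5% of reads from B6, and in Hum/SPRT 10.5% of its DMC1 reads and 38.7% of 235 H3K4me3 reads came from B6. The pair lay on opposite sides in STUS/Hum and kept to those sides of DMC1 in the second cross. Beside the other B6-cut hotspots, named after their values were seen, the windows of Tspan9, Gm32486 and Gm30193 held no exact match, nor did that of Gm17619 beside the other STUS-cut hotspot, and the hotspots at Tspan9 and Gm32486 were not called in Hum/SPRT. The match in the printed pair is therefore no general trait of the B6-cut windows.

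B6-cut hotspots outnumbered STUS-cut hotspots. There were 923 B6-cut and 626 STUS-cut hotspots, so that 59.6% of the one-sided hotspots were cut on the B6 homolog (95% Wilson interval 57.1 to 62.0%). The 1549 hotspots were 36.3% of the humanized hotspots with a B6 fraction (interval 34.9 to 37.8%), against 53.5% of all autosomal hotspots of the library with a fraction. B6-cut hotspots were 21.7% of the humanized set and 36.1% of all, and STUS-cut hotspots 14.7% and 17.4%. For comparison, the STUS allele in the same library was one-sided at 69.3% of its hotspots (interval 67.7 to 70.8%), and 89.7% of these were B6-cut (interval 88.4 to 90.8%). The humanized hotspots were therefore less often one-sided than those of the STUS allele, and their 2 directions were nearer to balance.

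The balance between the directions moved with the limits and with the allele assignment. With limits of 40 and 60% the B6-cut share was 46.9%, and with limits of 10 and 90% it was 68.7%, so STUS-cut hotspots were the more numerous at the wide limits and B6-cut hotspots at the strict ones. Hotspots to which no allele was assigned leaned the other way, with 144 B6-cut and 656 STUS-cut. Added to the humanized set, an alternative chosen after seeing the data, they turned the majority, with 45.4% of 2349 one-sided hotspots B6-cut (interval 43.4 to 47.4%). The authors' assignment draws on hotspots of other mice, and its part in the count of each direction was not tested.

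Along the scale of the B6 fraction the directions had different shapes. Humanized hotspots were most frequent at 45 to 50% of reads from B6, with 488 hotspots. Toward the B6 side the count fell to 108 hotspots between 75 and 80% and rose again to 260 between 90 and 95%. Toward the STUS side it fell from 216 hotspots at 25 to 30% to 141 at 20 to 25% and 98 under 5%. Among hotspots assigned to the humanized allele, a separate peak was thus seen at the B6 end only. Unassigned hotspots, of which 656 were STUS-cut and 144 B6-cut, are not in these counts. The median B6 fraction was 90.5% in B6-cut hotspots and 13.2% in STUS-cut hotspots, and 52.1% of the B6-cut hotspots lay above 90% whereas 35.0% of the STUS-cut hotspots lay under 10%. The fraction was listed as 100% at 20 hotspots and as 0% at 11.

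**Figure D1:**
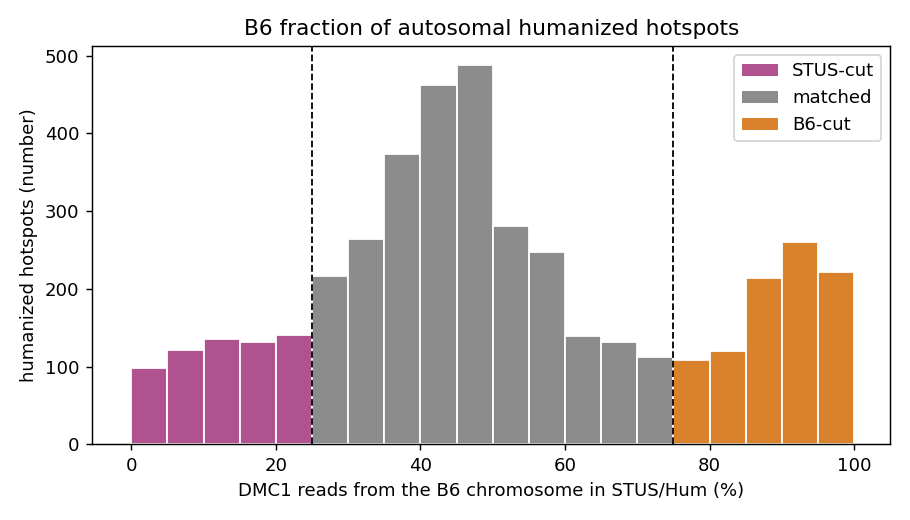
Number of autosomal humanized hotspots of STUS/Hum (vertical axis) by the percentage of DMC1 reads from the B6 chromosome (horizontal axis, bins of 5 percentage points), colored by class with the limits of 25 and 75% dashed. The bar at 90 to 95% holds 260 hotspots and forms a second peak, whereas the bar under 5% holds 98.

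The limits did not fall at a gap in the distribution. Between 20 and 25% there were 141 hotspots, and 230 between 25 and 30% with both ends counted. On the other side there were 120 hotspots between 70 and 75%, ends included, and 108 above 75 and up to 80%. These counts include 26 hotspots listed at exactly 25% and 18 at exactly 75%, which count as matched. Just inside the upper limit were a hotspot within Zfp462, a zinc finger gene, with 75.1% of reads from B6 and a signal of 154, and one within the long noncoding RNA gene 2310016D23Rik with 75.5% and a signal of 29.5. Just below it lay a hotspot within Itpr1, which encodes an inositol trisphosphate receptor, with 74.8% and a signal of 53.7, and one near the pseudogene Gm7988 with 74.5% and a signal of 22.8. These hotspots were picked for their nearness to the limit. Just inside the lower limit were hotspots within Zmynd11 (24.81%, signal 216) and 31.0 kb from the pseudogene Gm7858 (24.79%, signal 44.5). Just above it were hotspots within Fam102b (25.2%, signal 66.9) and Osbpl3 (25.3%, signal 62.3).

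Among humanized hotspots, the STUS-cut ones were fewer but had the higher median signal. The median DMC1 signal, in the units of the deposited tables, was 44.98 at STUS-cut hotspots (95% order-statistic interval 40.8 to 49.1), 40.02 at matched hotspots (interval 38.4 to 41.8) and 34.2 at B6-cut hotspots (interval 32.1 to 36.4). A signal above 100 was reached by 16.6% of the STUS-cut, 16.3% of the matched and 11.1% of the B6-cut hotspots. By this share the B6-cut hotspots stood below both other classes. When humanized hotspots with a fraction were ranked by signal, the top quartile held 180 STUS-cut and 164 B6-cut hotspots and the bottom quartile 116 and 283. Among the strongest 100 there were 11 B6-cut and 5 STUS-cut hotspots, and among the strongest 500 there were 82 and 76. STUS-cut hotspots therefore did not lead among the very strongest, and of the 4 quartiles the surplus of B6-cut hotspots was largest in the bottom one. Of the summed signal of humanized hotspots with a B6 fraction, B6-cut hotspots held 18.3% and STUS-cut hotspots 15.2%, with 66.5% at matched hotspots. Hotspots with no allele assigned had the opposite order, with a median of 37.4 at B6-cut and 32.1 at STUS-cut hotspots. Humanized hotspots without a B6 fraction, 466 in number, were the weakest, with a median of 23.9.

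In both directions the most one-sided hotspots had the largest signal. Under 5% of reads from B6 the median was 85.5 (interval 60.3 to 98.9), and it fell to 31.3 (interval 27.3 to 34.8) at 20 to 25%. On the B6 side it was 23.4 (interval 20.3 to 27.1) between 75 and 80% and 66.8 (interval 57.6 to 75.3) above 95%. Between 40 and 60% it was 44.2 (interval 41.5 to 45.6). Hotspots just beyond the limits were thus weaker than both the evenly cut and the almost fully one-sided hotspots. Low medians did not begin at the limits, since matched hotspots had 30.9 (interval 28.0 to 34.7) at 60 to 75%. At 25 to 40% they had 38.9 (interval 36.4 to 40.7). How many reads each fraction rests on is unknown, so the fraction of a weak hotspot may be less certain.

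**Figure D2:**
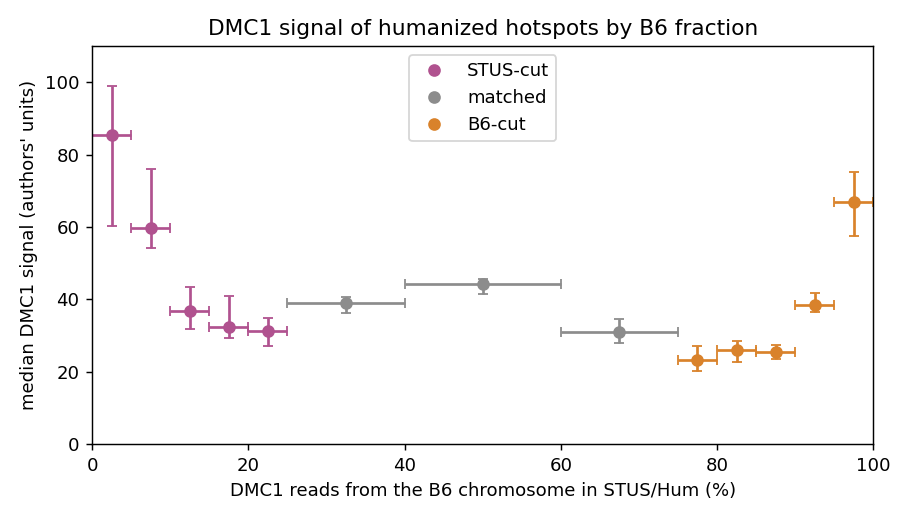
Median DMC1 signal of autosomal humanized hotspots in the authors' units (vertical axis) by the percentage of reads from the B6 chromosome (horizontal axis), with horizontal bars for the width of each bin and vertical bars for the 95% order-statistic interval. The medians are highest at the ends, 85.5 under 5% and 66.8 above 95%, and lowest between 75 and 90%.

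The 5 B6-cut hotspots with the largest signal lay on 4 chromosomes. The strongest lay within Gm30234, a long noncoding RNA gene (chromosome 19, position 53093617), and had a signal of 300 with 95.1% of reads from B6. The next lay on chromosome 1 at position 30777196, 4.86 kb from the pseudogene Gm6473 (signal 265, 98.9% from B6). The third lay on chromosome 11 at position 44645340 within Ebf1, which encodes a transcription factor of B lymphocyte development (signal 247, 76.5%). These were followed by a hotspot on chromosome 19 at position 48259539 within Sorcs3, a gene for a sorting receptor of neurons (signal 236, 97.9%), and one on chromosome 7 at position 24502484 within Cadm4, a gene for a cell adhesion molecule (signal 231, 96.2%). Of the 5, only the Ebf1 hotspot lay near the limit.

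Among STUS-cut hotspots the strongest lay on chromosome 8 at position 31141261, 7.94 kb from Rnf122, a gene for a RING finger protein, with a signal of 397 and 1.24% of reads from B6. The second, on chromosome 10 at position 108413696 within Pawr, which encodes a regulator of apoptosis, had a signal of 314 and 1.79% from B6. The third, on chromosome 14 at position 30298930 within the calcium channel gene Cacna1d, had 225 and 1.25%. A hotspot on chromosome 8 at position 48451353 within the teneurin gene Tenm3 had 216 and 12.7%, and one on chromosome 13 at position 9741251 within Zmynd11, which encodes a reader of histone H3 methylation, had 216 and 24.8%. The first 3 were almost wholly cut on the STUS homolog, whereas the Zmynd11 hotspot was at the limit. Positions are in mm10, and gene names are from GRCm38.p6, whose table gives gene ends but no exons. Of the 50 strongest humanized hotspots with a B6 fraction, 3 were B6-cut, 2 STUS-cut and 45 matched.

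Both directions were spread over every autosome. The count ranged from 32 on chromosome 12 to 77 on chromosome 2 for B6-cut hotspots and from 21 on chromosome 19 to 46 on chromosome 4 for STUS-cut hotspots. The one-sided share of humanized hotspots with a fraction ran from 31.7% on chromosome 7 to 41.7% on chromosome 19. B6-cut hotspots were the more numerous on 18 of 19 autosomes, with chromosome 12 as the exception (32 against 34). Their share of one-sided hotspots was lowest there, at 48.5% (95% Wilson interval 36.8 to 60.3%), and highest on chromosome 14, at 68.5% (interval 57.1 to 78.0%). On 19 of 19 autosomes the interval included the genome-wide 59.6%, so no autosome stood apart at these counts.

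**Figure D3:**
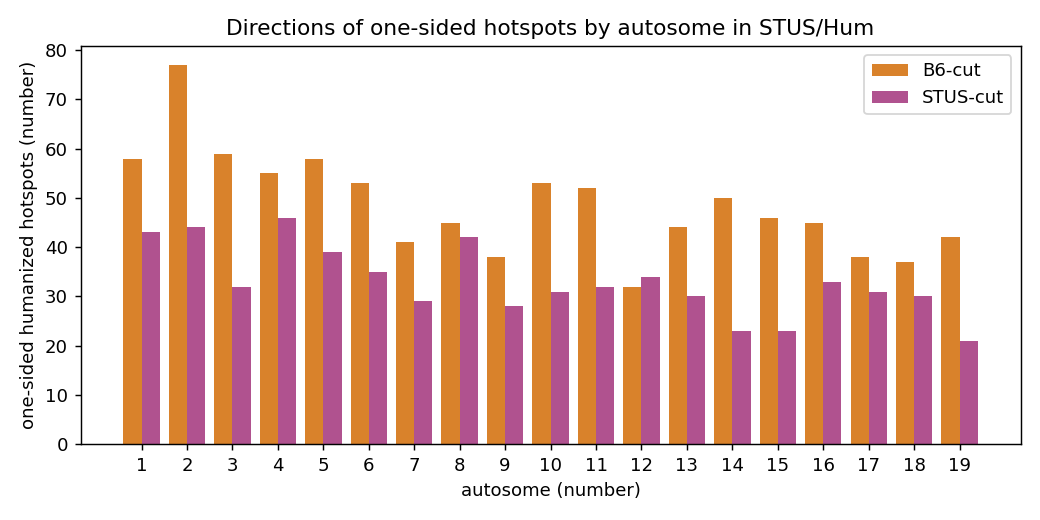
Number of B6-cut and STUS-cut humanized hotspots of STUS/Hum (vertical axis) on each autosome (horizontal axis), 1 bar per direction. B6-cut hotspots are more numerous on 18 of 19 autosomes, with 32 against 34 on chromosome 12.

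The difference in signal was as widespread. The median signal was higher in STUS-cut than in B6-cut hotspots on 18 of 19 autosomes, with chromosome 7 as the exception (32.5 against 33.0). Medians per autosome ran from 27.6 to 42.6 for B6-cut and from 32.5 to 67.6 for STUS-cut hotspots. Shares of signal were taken over humanized hotspots with a B6 fraction. The share at B6-cut hotspots ran from 12.02% on chromosome 12 to 28.7% on chromosome 19, which holds 2 of their 5 strongest hotspots. At STUS-cut hotspots it ran from 11.8% on chromosome 5 to 23.1% on chromosome 8, which likewise holds 2 of theirs. The share at STUS-cut hotspots was also high on chromosomes 12 (20.7%) and 17 (20.4%), which hold none of their 5 strongest.

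Neighboring one-sided hotspots lay a median of 861 kb apart and had the same direction in 797 of 1530 pairs (52.1%, 95% Wilson interval 49.6 to 54.6%). In 158 pairs under 100 kb apart the share was 60.1% (interval 52.3 to 67.4%), in 678 pairs from 100 kb to 1 Mb apart 51.6% (interval 47.9 to 55.4%), and in 694 pairs at 1 Mb or more it was 50.7% (interval 47.0 to 54.4%). Since the directions were unequal in number, these shares are to be compared with each other and not with an even split. The share was highest in the nearest pairs, with intervals that overlap. The median position, as a percentage of the distance to the last annotated gene end, was 57.6% for B6-cut (interval 52.6 to 61.1%), 48.7% for STUS-cut (interval 44.7 to 54.3%) and 53.9% for matched hotspots (interval 51.9 to 56.3%).

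A smaller share of B6-cut than of STUS-cut hotspots lay in protein-coding genes. Protein-coding genes overlapped 484 of the 923 B6-cut centers (52.4%, interval 49.2 to 55.6%) and 376 of the 626 STUS-cut centers (60.1%, interval 56.2 to 63.8%). The share was 58.4% at matched humanized hotspots (interval 56.5 to 60.2%) and 54.2% at all autosomal hotspots of the library, which is within the interval of the B6-cut hotspots. With genes of every kind the shares were 60.8% (interval 57.6 to 63.88%) and 65.8% (interval 62.0 to 69.4%), with intervals that overlap, against 61.5% of all hotspots and 65.7% of matched humanized ones (interval 63.93 to 67.5%). The interval of matched hotspots lay just above that of the B6-cut ones. Within 1 kb of an end of a coding gene lay 20 hotspots in each direction, 2.17 and 3.19% of them, against 2.94% of all hotspots. Both shares near gene ends were within counting error of that of all hotspots.

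The Hum/SPRT hybrid shows the same positions with another partner for the B6 homolog. Its DMC1 and H3K4me3 values did not enter the choice of hotspots, but it shares the B6 homolog and the humanized allele with STUS/Hum. Whether the authors drew on it when assigning alleles in STUS/Hum is not stated, which bears on how often hotspots recur there. A hotspot counted as called in Hum/SPRT when a center lay within 500 bp. This held for 1034 of the 1549 hotspots (66.8%), against 35.9% of all autosomal hotspots of STUS/Hum. B6-cut hotspots were called more often, at 672 of 923 (72.8%, 95% Wilson interval 69.8 to 75.6%), than STUS-cut hotspots, at 362 of 626 (57.8%, interval 53.9 to 61.6%). Matched humanized hotspots were at 71.6% (interval 69.9 to 73.3%), so only the STUS-cut hotspots differed from them by more than counting error. Of those found, 662 B6-cut and 358 STUS-cut hotspots were assigned to the humanized allele in Hum/SPRT too, and the remaining 10 and 4 had no allele there.

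STUS-cut hotspots recurred less often than B6-cut hotspots in the 3 upper quartiles of signal. In the top signal quartile of humanized hotspots, 162 of 164 B6-cut hotspots were called in Hum/SPRT (98.8%, interval 95.7 to 99.7%) and 704 of 722 matched hotspots (97.5%, interval 96.1 to 98.4%), but 126 of 180 STUS-cut hotspots (70%, interval 62.9 to 76.2%). In the second quartile the shares were 88.8% of B6-cut, 86.6% of matched and 59.3% of STUS-cut hotspots, and in the quartile below it 70.4%, 61.4% and 52.8%. In the bottom quartile they were 46.6%, 38.8% and 44.0%, and the interval of STUS-cut hotspots (35.3 to 53.0%) overlapped those of both other classes. A large signal in STUS/Hum thus went with a call in the second cross almost always for B6-cut and matched hotspots, and less often for STUS-cut hotspots. The STUS-cut hotspots that were not called had a median signal of 35.0 in STUS/Hum, against 21.4 for B6-cut hotspots that were not called. Unassigned STUS-cut hotspots were called in Hum/SPRT at 32 of 656 positions (4.88%), and unassigned B6-cut hotspots at 56 of 144 (38.9%), so recurrence also differed by whether an allele had been assigned.

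With limits of 25 and 75%, B6-cut hotspots mostly kept their side in the second cross, and STUS-cut hotspots did so less often. Humanized hotspots of Hum/SPRT themselves leaned to B6, with 38.1% of those with a fraction B6-cut and 18.6% SPRT-cut. Each share below is therefore to be read against the general share of its own direction. Among B6-cut hotspots with a DMC1 fraction in Hum/SPRT, 431 of 590 had over 75% of reads from B6 there (73.1%, 95% Wilson interval 69.3 to 76.5%), against 49.5% of all autosomal hotspots of that library and 39.5% of matched humanized hotspots (interval 37.1 to 42.0%). Among STUS-cut hotspots, 126 of 226 had under 25% from B6 and were thus cut on the SPRT homolog (55.8%, interval 49.2 to 62.1%), against 16.9% of all hotspots and 7.04% of matched ones (interval 5.85 to 8.45%). Matched in Hum/SPRT were 24.7% of the B6-cut and 30.5% of the STUS-cut hotspots. The opposite side was taken by 13 B6-cut hotspots (2.20%, interval 1.29 to 3.73%) and 31 STUS-cut hotspots (13.7%, interval 9.83 to 18.8%). Both were below the shares of matched hotspots that were SPRT-cut (7.04%) and B6-cut (39.5%) there. In both directions the share that kept its side was above that of matched hotspots on 19 of 19 autosomes. Single autosomes held as few as 16 B6-cut and 6 STUS-cut hotspots with both fractions. With limits of 10 and 90% in STUS/Hum the order of the directions turned, with intervals that overlap. The side was then kept by 78.0% of B6-cut (interval 73.3 to 82.1%) and 83.8% of STUS-cut hotspots (interval 74.2 to 90.3%).

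**Figure D4:**
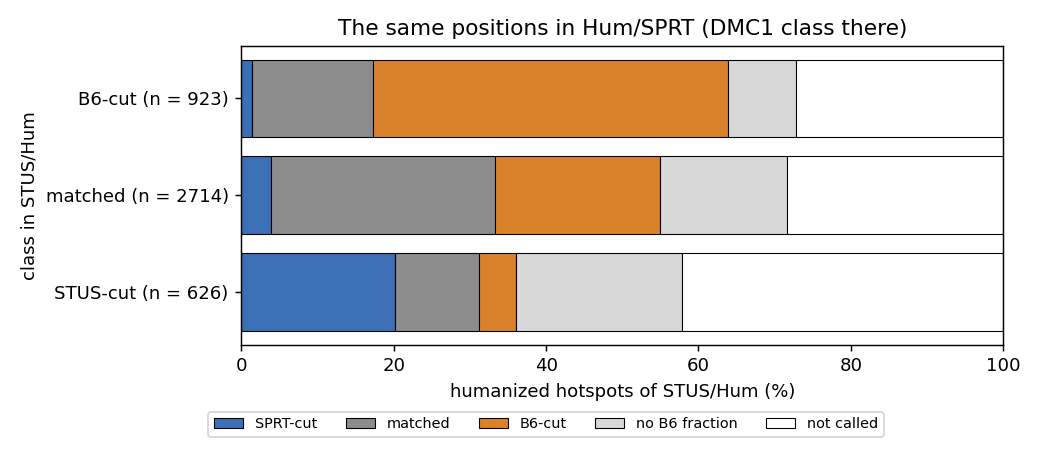
Percentage of STUS-cut, matched and B6-cut humanized hotspots of STUS/Hum (horizontal axis, 1 bar per class) by the DMC1 class of the same position in Hum/SPRT, with positions that had no B6 fraction or were not called there. SPRT-cut positions are most frequent among the 626 STUS-cut hotspots and B6-cut positions among the 923 B6-cut hotspots.

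On the STUS side, the more one-sided a hotspot was in STUS/Hum, the more often it kept its side. Under 5% of reads from B6, 93.5% of the 31 hotspots with a fraction in Hum/SPRT were SPRT-cut (interval 79.3 to 98.2%), and none was B6-cut. At 5 to 10% it was 77.6% of 49 (interval 64.1 to 87.0%), and at 10 to 25% it was 40.4% of 146 (interval 32.8 to 48.5%). On the other side, 66.4% of 253 hotspots were B6-cut in Hum/SPRT at 75 to 90% (interval 60.4 to 71.9%), 77.5% of 160 at 90 to 95% (interval 70.4 to 83.3%) and 78.5% of 177 above 95% (interval 71.9 to 83.9%). On the B6 side the share was thus lowest at 75 to 90% and about the same in both bands beyond it. The median DMC1 fraction from B6 in Hum/SPRT was 90.9% at B6-cut hotspots (order-statistic interval 89.3 to 92.0%), 20.2% at STUS-cut hotspots (interval 17.6 to 25%) and 59.1% at matched hotspots (interval 56.9 to 62.4%). Across the 2307 humanized hotspots with a fraction in both libraries, the B6 fractions correlated with r = 0.450 (Pearson) and rho = 0.414 (Spearman). These are correlations across hotspots that share the B6 homolog, and hotspots are not independent replicates.

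STUS-cut hotspots more often lacked a DMC1 fraction in Hum/SPRT. It was missing at 136 of the 362 called STUS-cut hotspots (37.6%), 82 of the 672 B6-cut hotspots (12.2%) and 453 of the 1944 matched ones (23.3%). The H3K4me3 fraction was missing at none of the called STUS-cut hotspots and at 6 B6-cut ones. At hotspots without a DMC1 fraction the median H3K4me3 fraction from B6 was 44.1% for STUS-cut (interval 37.9 to 48.2%), 64.6% for B6-cut (interval 62.3 to 66.5%) and 64.2% for matched hotspots (interval 62.9 to 65.2%). Where DMC1 gave no value, then, STUS-cut hotspots were apart from matched ones and B6-cut hotspots were not.

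H3K4me3 in Hum/SPRT, the mark of PRDM9 binding, was shifted the same way. The median percentage of H3K4me3 reads from B6 was 83.3% at B6-cut hotspots (interval 80.7 to 85.1%), 63.4% at matched hotspots (interval 62.3 to 64.2%) and 42.5% at STUS-cut hotspots (interval 37.6 to 45.7%). Over 75% of H3K4me3 reads came from B6 at 413 of 666 B6-cut hotspots (62.0%, Wilson interval 58.3 to 65.6%), against 35.4% of all autosomal hotspots of Hum/SPRT and 29.9% of matched ones. Under 25% came from B6 at 86 of 362 STUS-cut hotspots (23.8%, interval 19.7 to 28.4%), against 9.5% of all hotspots and 0.206% of matched ones, which is 4 of 1940. Among B6-cut hotspots this held for 1 of 666. In each class the mark was less one-sided than DMC1, each over the called hotspots that had the fraction in question. Within 25 to 75% by H3K4me3 were 67.1% of 362 STUS-cut, 37.8% of 666 B6-cut and 69.9% of 1940 matched hotspots, against 30.5% of 226, 24.7% of 590 and 53.5% of 1491 by DMC1. Per hotspot a median of 525.5 H3K4me3 reads carried SNPs at B6-cut, 418 at STUS-cut and 589 at matched hotspots.

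**Figure D5:**
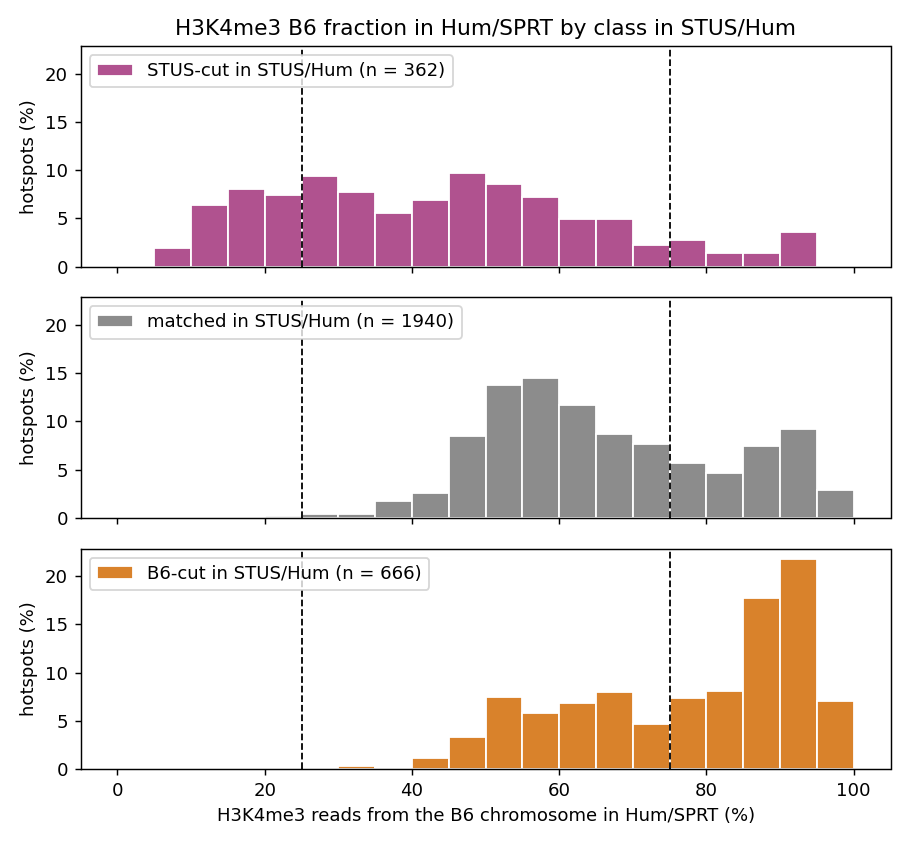
Percentage of hotspots (vertical axis) by the percentage of H3K4me3 reads from the B6 chromosome in Hum/SPRT (horizontal axis, bins of 5 percentage points), in separate panels for humanized hotspots that were STUS-cut, matched or B6-cut in STUS/Hum, with 25 and 75% dashed. The medians are 42.5, 63.4 and 83.3%, and positions under 25% are found almost only in the STUS-cut panel.

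Where the classes of the crosses parted, H3K4me3 was nearer to the DMC1 class of Hum/SPRT at hotspots that were B6-cut or matched there. Its median B6 percentage was 89.2% at hotspots that were B6-cut in both crosses (n = 431) and 57.6% at B6-cut hotspots that were matched in Hum/SPRT (n = 146). At the 13 B6-cut hotspots that were SPRT-cut in Hum/SPRT it was 44.1% (interval 37.1 to 50.2%), lower than at the other B6-cut hotspots but between the limits of 25 and 75%. At STUS-cut hotspots it was 27.2% where the second cross was SPRT-cut (n = 126), 52.9% where it was matched (n = 69) and 88.3% where it was B6-cut (n = 31). Both values come from the Hum/SPRT genotype, so they are not independent of each other. Among SPRT-cut positions of Hum/SPRT, the H3K4me3 fraction was lower at STUS-cut hotspots (27.2%, interval 22.1 to 29.4%) than at hotspots matched in STUS/Hum (44.2%, interval 41.6 to 46.1%). The DMC1 medians of these 2 groups, 10.5 and 18.3% from B6, were apart too.

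Levels of binding and breaks were also compared within Hum/SPRT. Median H3K4me3 enrichment over input, as the authors give it, was 6.01 at B6-cut hotspots (order-statistic interval 5.76 to 6.32), 5.10 at STUS-cut hotspots (interval 4.74 to 5.47) and 6.94 at matched hotspots (interval 6.73 to 7.12). The median DMC1 signal was 36.4 (interval 33.8 to 39.9), 34.5 (interval 31.8 to 39.0) and 43.0 (interval 41.0 to 44.8) in the same order. Matched hotspots were highest in both measures. Over all called hotspots the enrichment was higher at B6-cut than at STUS-cut hotspots, with intervals apart, whereas the DMC1 intervals of the 2 directions overlapped. The 31 hotspots that were STUS-cut in one cross and B6-cut in the other had a median signal of 88.4 in STUS/Hum and 22.4 in Hum/SPRT, on scales that are not comparable between libraries. The 126 that were STUS-cut and SPRT-cut had 43.8 and 40.9 (interval in Hum/SPRT 32.1 to 52.0), and the 431 that were B6-cut in both had 43.1 and 31.6 (interval 29.3 to 34.0). By the classes of Hum/SPRT itself, its humanized hotspots had a median of 39.2 where SPRT-cut and 29.8 where B6-cut. Where the side was kept, the median signal in Hum/SPRT was thus larger at hotspots cut on the homolog that is not B6, with intervals that overlap.

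Among the 5 strongest hotspots of each direction, some kept their side in Hum/SPRT and others did not. The Gm30234 hotspot, B6-cut in STUS/Hum, had 97.0% of DMC1 reads and 87.6% of 963 H3K4me3 reads from B6 in Hum/SPRT (Wilson interval 85.4 to 89.6%). The hotspot near Gm6473 had 94.8% and 81.2% of 690 reads (interval 78.1 to 83.9%), and the Ebf1 hotspot 98.8% and 92.3% of 649 reads (interval 89.99 to 94.1%). The Cadm4 hotspot had 98.8% and 87.0% of 1448 reads (interval 85.2 to 88.7%). These 4 were B6-cut in both crosses, and the Ebf1 hotspot was more one-sided in Hum/SPRT than in STUS/Hum. The Sorcs3 hotspot, with 97.9% from B6 in STUS/Hum, was matched in Hum/SPRT, with 70.7% of DMC1 reads and 69.3% of 1529 H3K4me3 reads (interval 67.0 to 71.6%). The hotspot near Rnf122 had 1.64% of DMC1 reads and 9.26% of 896 H3K4me3 reads from B6 (interval 7.54 to 11.3%), and the Cacna1d hotspot 2.70% and 9.62% of 291 reads (interval 6.74 to 13.6%). These 2 were bound and cut almost wholly on the SPRT homolog. The Pawr hotspot, with a signal of 314 in STUS/Hum, had a signal of 24.6 in Hum/SPRT, 26.3% of DMC1 reads from B6 and 39.1% of 128 H3K4me3 reads (interval 31.0 to 47.7%). The Tenm3 hotspot changed sides, with 85.3% of DMC1 reads and 69.6% of 583 H3K4me3 reads from B6 in Hum/SPRT (interval 65.8 to 73.2%). The Zmynd11 hotspot was matched there, with 62.4% of DMC1 reads and 62.3% of 472 H3K4me3 reads (interval 57.8 to 66.5%).

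Read in the other direction, 273 of the 614 SPRT-cut humanized hotspots of Hum/SPRT (44.5%) were called in STUS/Hum, whereas 1145 of its 1259 B6-cut ones were (90.9%) and 79.3% of its matched ones. Of the SPRT-cut hotspots with a fraction in STUS/Hum, 130 of 259 were STUS-cut (50.2%, interval 44.1 to 56.2%), against 17.4% of all hotspots of STUS/Hum and 6.47% of those matched in Hum/SPRT, and 14 were B6-cut. Of the B6-cut ones, 452 of 1083 were B6-cut in STUS/Hum (41.7%, interval 38.8 to 44.7%), against 36.1% of all hotspots and 14.1% of matched ones, and 34 were STUS-cut. The share for B6-cut hotspots was thus a little above that of all hotspots, which include those of the STUS allele (62.1% B6-cut). Of the humanized hotspots of STUS/Hum with a fraction, 21.7% were B6-cut and 14.7% STUS-cut. Against these, the shares for B6-cut and for SPRT-cut hotspots were both well above. In both crosses, then, humanized hotspots cut on the homolog that is not B6 were the ones less often called in the other cross.

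The 3 hybrids without the humanized allele were searched for the same positions. A center lay within 500 bp in STUS/B6 at 5 of the 1549 hotspots (0.323%), in B6/SPRT at 22 (1.42%) and in CAST/SPRT at 4 (0.258%). Over all autosomal hotspots of STUS/Hum the shares were 37.7%, 1.62% and 5.51%, so one-sided hotspots were below them in STUS/B6 and CAST/SPRT and near the general share in B6/SPRT. By direction these were 2, 13 and 3 B6-cut and 3, 9 and 1 STUS-cut hotspots. Matched humanized hotspots were at 0.332% in STUS/B6, 0.958% in B6/SPRT and 0.442% in CAST/SPRT. The low shares in STUS/B6 and CAST/SPRT were therefore not particular to one-sided hotspots. Hotspots of the STUS allele in STUS/Hum recurred in STUS/B6 at 96.0% and in Hum/SPRT at 0.622%. Alleles were assigned by comparison with other mice, and the part of the assignment in these shares was not tested.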

How the data were processed

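Each of 5 genotypes had a single DMC1 SSDS library, and 3 also had H3K4me3 ChIP-seq and input. The authors called hotspots, assigned PRDM9 alleles and assigned reads to homologs by SNPs. Build mm10 and BWA are named in the submitters' processing notes. The authors deposited 1 table per genotype with a DMC1 signal, whose scaling to depth is not stated, and ChIP and input coverage. The deposited fraction of DMC1 reads from B6 comes without its read number, so its depth is unknown. The authors' H3K4me3 enrichment is a ratio over input whose formula is not stated. The deposited counts of SNP-carrying reads accompany the H3K4me3 fraction. Each H3K4me3 column was read as 1 pooled value per genotype, which is not stated. A further 13 columns (p-values and a mark for sharing) were not used.

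Hotspots of chromosomes 1 to 19 were classed at 25 and 75%, and centers within 500 bp were matched to the nearest. Shares carry Wilson intervals and medians exact binomial order-statistic intervals, both at 95%. No test was made, since each genotype had 1 DMC1 library and at most 1 deposited H3K4me3 fraction per hotspot. Hotspots named were, in each direction, the 5 with the largest signal, the 3 largest with a B6 fraction in Hum/SPRT, and 2 on each side of the limit, with overlapping or nearest genes of GRCm38.p6. The hotspots and lists were chosen with earlier results of these data known. Alternatives covered the limits, the signal, the distance, and the allele. Matching and intervals were tested on simulated data. Intervals used scipy 1.17.1 and numpy 2.4.6, tables pandas 2.3.3 and figures matplotlib 3.10.9, under Python 3.11.15.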

Additional observations from a re-analysis of the deposited data

How the results depend on the processing

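Of 47 alternative values, 23 lay within the interval of the reported value (for shares of signal, within 1 SD over the 19 autosomes) and 24 did not. No paired analysis was possible because each genotype had 1 DMC1 library and no result came from a test. The search for the 13-mer around hotspot centers and its 8 alternatives were not run, since no genome was used here.

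With limits of 10 and 90%, the one-sided share was 16.4% and the B6-cut share of it 68.7%. The median signal was 46.1 at B6-cut and 68.3 at STUS-cut hotspots. These then held 12.2 and 7.23% of the signal of humanized hotspots with a B6 fraction. Called in Hum/SPRT were 80.04% of B6-cut hotspots, of which 78.0% were B6-cut there. Of STUS-cut hotspots 83.8% were SPRT-cut there, and the median H3K4me3 fractions were 86.5% at B6-cut and 28.7% at STUS-cut hotspots. Both directions were thus more distinct at the stricter limits. The order of the shares that kept their side turned, with intervals that overlap at 10 and 90%. With limits of 25 and 75% they were 73.1% of B6-cut and 55.8% of STUS-cut hotspots. With limits of 40 and 60%, the one-sided share was 65.3% and the B6-cut share 46.9%, the opposite majority.

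With only hotspots at or above the median signal of the library, the one-sided share was 34.8%, the B6-cut share 55.3%, and the median signals 56.7 and 71.1. Called in Hum/SPRT were then 91.99% of B6-cut and 64.4% of STUS-cut hotspots. With centers within 250 bp these were 64.0 and 51.1%. Hotspots with no allele assigned were one-sided at 70.5%, and 18% of these were B6-cut. Together with humanized hotspots, an alternative chosen after seeing the data, the B6-cut share was 45.4%. The higher signal of STUS-cut hotspots and the lower share of them called in Hum/SPRT had the same direction in the alternatives run for humanized hotspots, whereas among unassigned hotspots the median signal was lower at STUS-cut (32.1) than at B6-cut hotspots (37.4). Beyond the changes that a filter makes by its construction, the cause was not tested. The unknown depth of the DMC1 fraction limits how surely a weak hotspot is placed.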
